A study of Mus musculus with 15 samples.

Results

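The 10 genes B2m, H2-K1, H2-D1, H2-Q4, H2-T23, Tap1, Tap2, Tapbp, Nlrc5 and Erap1 encode mouse MHC class I molecules and the proteins that load them with peptide. They were taken by symbol from a table of 23337 genes, all 10 were found, and all 10 passed the low-count filter that left 12471 genes for testing. RNA came from endothelial cells of mouse hearts, sorted by flow cytometry as CD45-negative and CD31-positive, 4 weeks after transverse aortic constriction (TAC), which narrows the aorta and overloads the left ventricle, or after sham surgery. The WT groups were Cad5CreERT2-/-STINGfl/fl mice, with 3 sham and 5 TAC libraries, and the KO groups were Cad5CreERT2+/+STINGfl/fl mice, with 3 sham and 4 TAC libraries. Both genotypes carry the floxed STING allele, and the KO groups alone carry CreERT2, an inducible recombinase that Cad5, the gene of VE-cadherin, drives in endothelium. An effect of the recombinase and an effect of the deletion therefore cannot be told apart. Age, sex and the induction of the recombinase are not given in the sources used here.

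MHC class I molecules are present on nearly all nucleated cells and display short peptides from the cell's own proteins to CD8 T cells and NK cells. Proteasomes cut proteins into peptides, the TAP transporter carries them into the endoplasmic reticulum, aminopeptidases trim them, and tapasin holds an empty heavy chain and its light chain at the transporter until a peptide binds. Transcription of these genes is raised by interferons and by NF-kappaB, both of which can act downstream of STING, an adaptor that responds to cytosolic DNA. The transactivator NLRC5 binds a set of class I promoters together with RFX, CREB and NF-Y proteins. Endothelial cells line the vessel lumen and express class I at their surface in the steady state.

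Most of the class I genes were lower in cells from KO hearts than in cells from WT hearts after TAC, and 3 of them also after sham. In KO TAC against WT TAC 8 of 10 genes fell and 0 rose, with log2 fold changes from -0.75 for H2-T23 to -0.38 for Tap1. Over all genes tested 15% fell in that comparison. In KO sham against WT sham 3 of 10 fell, H2-D1, H2-Q4 and Tap2, beside 4.63% of all genes. TAC itself raised B2m in WT mice (1 of 10, beside 1.6% of all genes) and no member passed in KO mice. Nlrc5 and Erap1 did not pass in any of the 7 comparisons.

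Total counts ran from 1362346 in WT sham 133 to 15670319 in WT TAC 134. KO sham 348 and KO sham 350 stand apart in detecting fewer genes for their depth, 12572 and 11698 against 14294 in KO sham 349, and sham and TAC results that rest on them are also given without both. That refit leaves 1 KO sham library, which is assumed to vary like the others, and for genes outside the set it was chosen after seeing the data. The targeted gene, listed as Tmem173, fell in KO against WT by 1.48 ± 0.14 on the log2 scale after TAC and by 1.28 ± 0.17 after sham, or by 0.92 ± 0.19 after sham without KO sham 348 and 350. The endothelial genes Pecam1 (CD31) and Cdh5 had at least 2149 and 4429 counts in every library, and Ptprc (CD45) had between 1 and 25. In bulk RNA of sorted cells, fewer cells of a type and less RNA per cell cannot be told apart.

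The promoters of the light chain B2m and of the 4 heavy chain genes are shown, all of which fell in KO TAC against WT TAC. Tap1, Tap2 and Tapbp fell there too and are not shown. Whether NF-kappaB or interferon had a part in these falls was not tested. Each window holds 250 bases before and 50 bases after the annotated start, from RefSeq on GRCm38.p6, the build called mm10. Windows were found for 8 of the 10 genes. Capitals mark matches on either strand to GGGATTNCC (the core of an NF-kappaB motif), AANNGAAA (the core of an interferon response motif), TGACG (the core of a cAMP response motif) and CCAAT (bound by NF-Y). Matches to different motifs did not overlap.
B2m (chr2:122147437-122147736, plus strand): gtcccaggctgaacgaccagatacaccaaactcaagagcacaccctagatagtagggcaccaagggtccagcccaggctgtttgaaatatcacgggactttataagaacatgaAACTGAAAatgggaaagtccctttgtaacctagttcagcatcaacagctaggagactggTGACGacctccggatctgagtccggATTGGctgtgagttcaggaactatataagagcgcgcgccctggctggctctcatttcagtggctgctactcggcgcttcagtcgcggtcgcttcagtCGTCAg
H2-K1 (chr17:34000284-34000583, minus strand): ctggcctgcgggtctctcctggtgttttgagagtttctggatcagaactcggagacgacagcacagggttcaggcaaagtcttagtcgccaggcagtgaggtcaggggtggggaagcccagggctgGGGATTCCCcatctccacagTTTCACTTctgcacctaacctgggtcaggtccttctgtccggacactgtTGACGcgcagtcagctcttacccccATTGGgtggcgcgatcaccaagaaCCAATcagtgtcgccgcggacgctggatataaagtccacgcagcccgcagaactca
H2-D1 (chr17:35262844-35263143, plus strand): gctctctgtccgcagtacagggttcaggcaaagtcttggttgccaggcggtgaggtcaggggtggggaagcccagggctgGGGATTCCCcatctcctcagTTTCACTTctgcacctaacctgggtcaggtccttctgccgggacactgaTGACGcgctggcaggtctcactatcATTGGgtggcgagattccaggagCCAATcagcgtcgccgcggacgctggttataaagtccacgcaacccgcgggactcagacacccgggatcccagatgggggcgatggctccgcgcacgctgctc
H2-Q4 (chr17:35379367-35379666, plus strand): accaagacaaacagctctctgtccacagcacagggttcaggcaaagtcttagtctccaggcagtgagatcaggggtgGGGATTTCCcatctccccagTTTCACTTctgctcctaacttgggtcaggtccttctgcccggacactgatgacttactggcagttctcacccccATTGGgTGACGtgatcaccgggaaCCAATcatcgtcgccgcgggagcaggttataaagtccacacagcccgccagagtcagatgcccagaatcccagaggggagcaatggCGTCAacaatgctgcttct
H2-T23 (chr17:36032652-36032951, minus strand): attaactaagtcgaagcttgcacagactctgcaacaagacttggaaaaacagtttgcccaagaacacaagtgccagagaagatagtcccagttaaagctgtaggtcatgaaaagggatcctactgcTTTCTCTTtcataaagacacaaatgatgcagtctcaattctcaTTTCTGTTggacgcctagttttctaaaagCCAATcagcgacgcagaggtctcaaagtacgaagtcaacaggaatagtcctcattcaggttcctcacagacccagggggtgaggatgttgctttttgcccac

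H2-K1, H2-D1 and H2-Q4 share the order of their NF-kappaB, interferon and CCAAT matches. The NF-kappaB motif begins at -124, -170 and -173 from the start, the interferon motif at -104, -150 and -153, and CCAAT matches follow nearer to the start. TGACG lies before the CCAAT matches in H2-K1 and H2-D1, at -55 and -101, and between them in H2-Q4, at -73. These distances depend on the annotated start, of which 2 are listed for H2-K1. Their windows are alike, with 88.9% identical bases between H2-K1 and H2-D1 over 253 aligned positions, 84.9% between H2-K1 and H2-Q4 and 83.1% between H2-D1 and H2-Q4. The windows of H2-T23 and H2-K1 are 59.7% identical. GGGATTNCC was found in these 3 windows of 8, and in 0.984% of 27025 promoter windows of the same length, 1 per gene. Both shares depend on the spelling chosen, and windows so alike are not 3 independent matches. The interferon motif was in 6 of 8 windows, against 24.2% of all promoters, TGACG in 5 of 8 against 21%, and CCAAT in 7 of 8 against 37.9%. All 4 motifs together were in the windows of 5 of the 27025 genes, taken at the first start listed for each. Among the windows of the members, taken at the start nearest to that of the counted gene, H2-K1, H2-D1 and H2-Q4 had all 4. B2m and H2-T23 have the interferon motif and CCAAT but no match to this spelling of the NF-kappaB motif. Other spellings were not searched, so neither gene is shown to lack an NF-kappaB motif. A match is a run of letters and not a measured binding site.

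**Figure D1:**
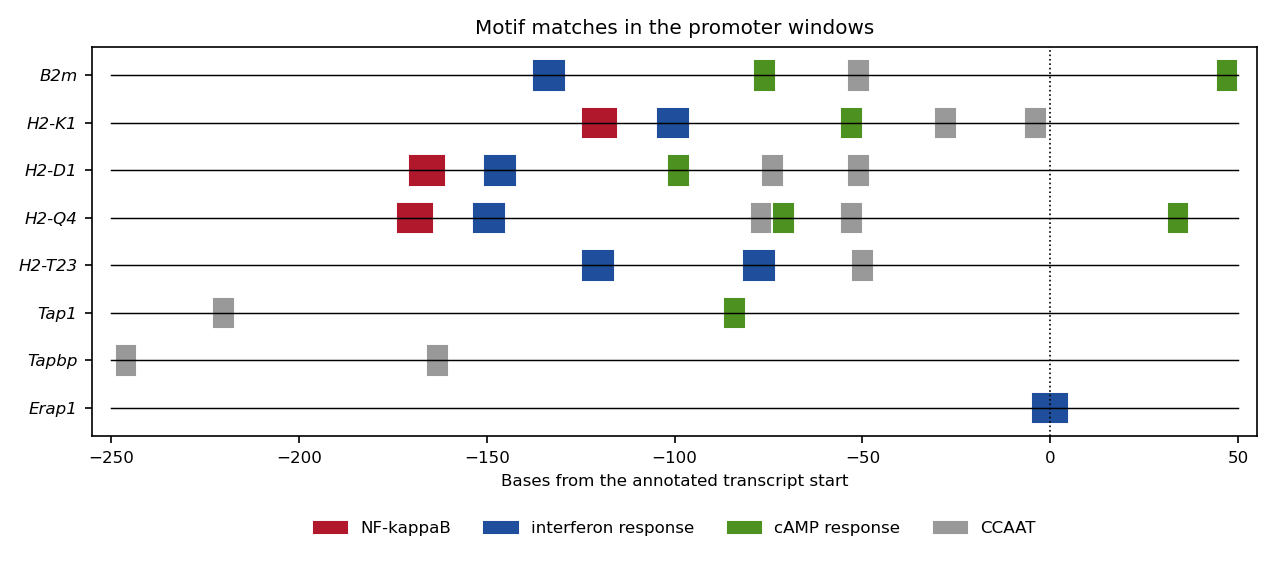
Motif matches by distance in bases from the annotated start (dotted line), 1 row per gene with a window, coloured by motif. H2-K1, H2-D1 and H2-Q4 have a match to GGGATTNCC, the NF-kappaB spelling searched, followed by an interferon match. The other 5 genes have no match to that spelling.

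Across genes, levels are compared as RPKM, the CPM divided by the counted exon length in kilobases, since longer genes collect more reads. B2m was highest, with a mean over the 4 groups of 1598 RPKM, followed by H2-D1 at 827 and H2-K1 at 539 RPKM, the genes of the classical heavy chains that present peptide to CD8 T cells. Tapbp (tapasin), at 188 RPKM, H2-Q4 at 144 and H2-T23 at 138 formed the next level, and their ranges over libraries overlapped. Both TAP subunits were lower, with Tap2 at 71.4 and Tap1 at 43.9 RPKM, and the peptide-trimming enzyme Erap1 was at 35.7 RPKM. Nlrc5 was lowest at 14.1 RPKM, and its highest library, at 21.2 RPKM, was below the lowest for Erap1, at 27.9. The 4 heavy chains summed to 1744 ± 134 RPKM in WT sham, 2064 ± 175 in WT TAC, 1346 ± 169.6 in KO sham and 1437 ± 199.6 in KO TAC. The ratio of B2m to this sum was 0.842 ± 0.0587, 0.99 ± 0.0874, 1.05 ± 0.193 and 1.04 ± 0.166 in the same order (SD, n = 3, 5, 3 and 4). The level of B2m was thus near the sum of these 4 heavy chains in each group. Other heavy chains, and reads that fit several places, are not in this sum.

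**Figure D2:**
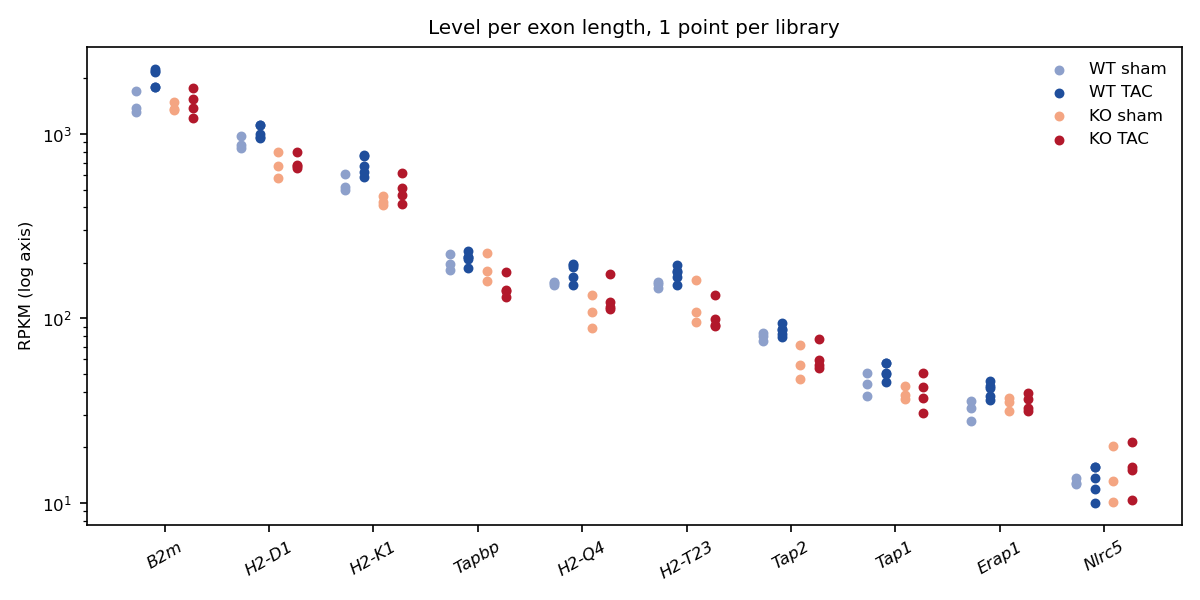
RPKM (log axis) of the 10 genes in order of level, 1 point per library, coloured by group. Levels run from 14.1 RPKM for Nlrc5 to 1598 RPKM for B2m, and the KO libraries lie toward the lower end for the heavy chains.

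B2m encodes the invariant light chain, without which most heavy chains do not reach the cell surface (chromosome 2, 122147687 to 122153082). Its level in CPM, which scales counts to equal library totals after TMM, was 1128, 1477 and 1187 in WT sham 131, 132 and 133. In WT TAC 134 to 138 it was 1880.1, 1534, 1549, 1858 and 1939 CPM. All 5 WT TAC libraries were above all 3 WT sham libraries, and above every KO library. In KO sham 348, 349 and 350 it was 1276, 1166 and 1152 CPM, and in KO TAC 351 to 354 it was 1041, 1521, 1189 and 1329.9 CPM. The closest pair was KO TAC 352 and WT TAC 135, and the KO TAC libraries overlapped those of KO sham. B2m rose in WT TAC against WT sham by 0.47 ± 0.11 on the log2 scale (edgeR adjusted p = 0.0283) and fell in KO TAC against WT TAC by 0.46 ± 0.10 (edgeR adjusted p = 0.0016). The value in KO TAC against KO sham was 0.08 ± 0.12 and in KO sham against WT sham -0.08 ± 0.13, neither of which passed. The difference between the TAC effects, KO minus WT, was -0.38 ± 0.16 and did not pass (edgeR adjusted p = 0.269). The rise in WT mice no longer passed when 1 of WT sham 131 and 133 and WT TAC 134, 137 and 138 was left out (edgeR adjusted p = 0.218, 0.148, 0.0748, 0.0778 and 0.0734), while the fall in KO TAC against WT TAC passed in all 23 alternatives run.

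H2-D1, a classical heavy chain, had the highest level of the heavy chains (chromosome 17, 35263094 to 35267497). Its CPM were 1459, 1701 and 1518 in WT sham and 1932, 1665, 1743, 1644 and 1939 in WT TAC. KO sham held 1006, 1160.0 and 1380.2 CPM and KO TAC 1133, 1159.7, 1177 and 1392 CPM. Every KO library lay below every WT library, with KO TAC 354 the highest of the KO libraries and WT sham 131 the lowest of the WT libraries. H2-D1 fell by 0.55 ± 0.09 after TAC (edgeR adjusted p = 6.36e-05) and by 0.40 ± 0.11 after sham (edgeR adjusted p = 0.0231).

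H2-K1, the other classical heavy chain in the set (chromosome 17, 33996012 to 34000333), was at 853, 995 and 815 CPM in WT sham and 1246, 1109, 961, 1020.0 and 1269 CPM in WT TAC. KO sham held 679.9, 757 and 701 CPM and KO TAC 683, 839.9, 765 and 1015 CPM. The sham groups did not overlap, whereas KO TAC 354 reached into the range of WT TAC. H2-K1 fell by 0.44 ± 0.10 in KO TAC against WT TAC (edgeR adjusted p = 0.00225). In KO sham against WT sham it had -0.32 ± 0.12 (edgeR adjusted p = 0.114), which did not pass. With TAC it had 0.33 ± 0.11 in WT and 0.21 ± 0.12 in KO mice, neither past the threshold. Averaged over both genotypes TAC raised it by 0.27 ± 0.08 (edgeR adjusted p = 0.0329), as it did B2m (0.28 ± 0.08, edgeR adjusted p = 0.0312). These were 2 of 10 members, beside 5.93% of all genes higher. Both calls were lost with limma voom, without KO sham 348 and 350 together, and without any 1 of WT sham 131 and 133, WT TAC 134 and 138 and KO TAC 352, where edgeR adjusted p ran from 0.0531 to 0.0959. Without WT TAC 137 that of B2m was lost, and without KO sham 348 or KO TAC 354 or with the leukocyte covariate that of H2-K1.

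**Figure D3:**
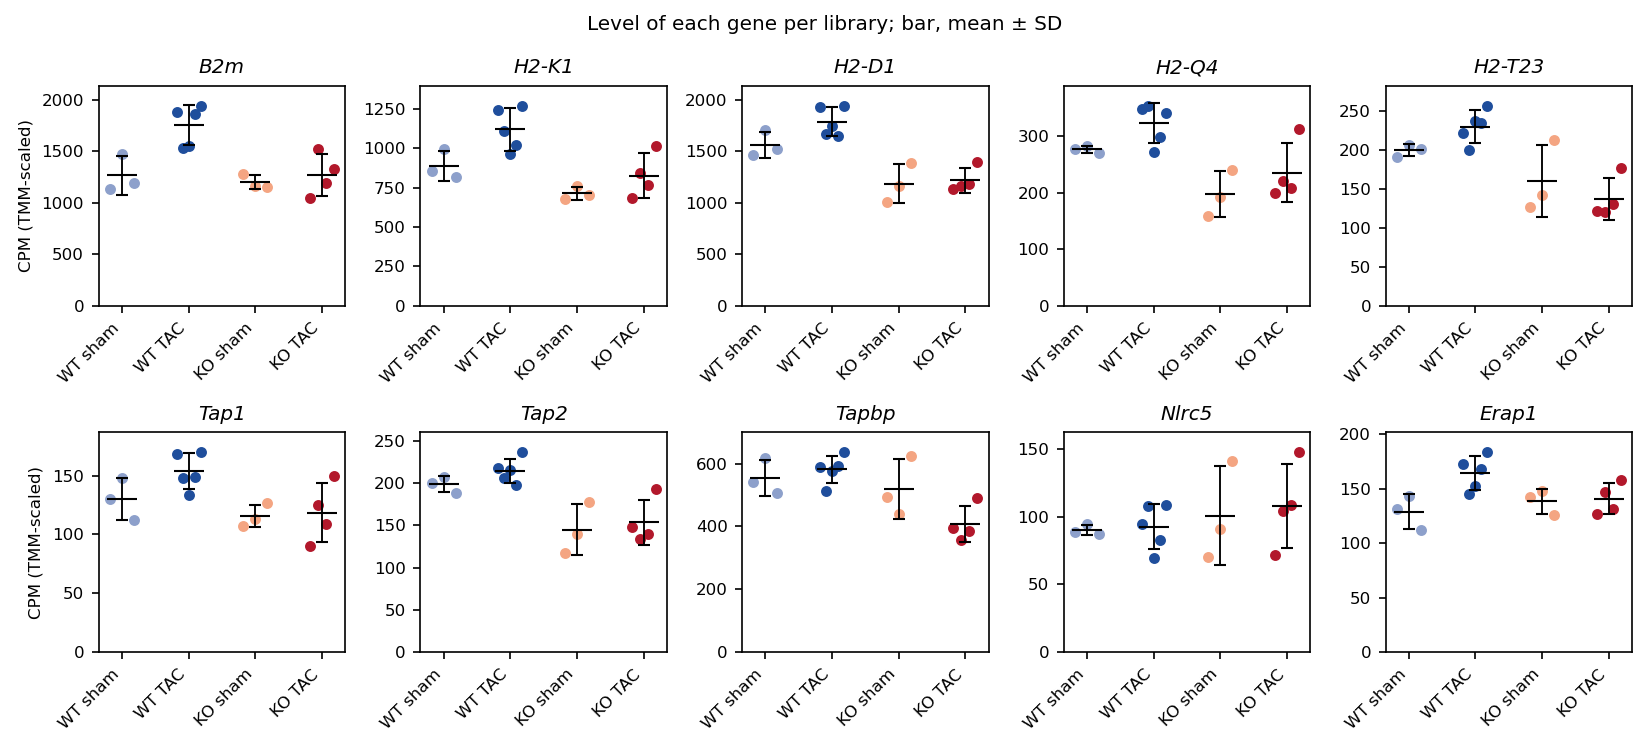
CPM of each gene in each library by group, with the mean and SD as bars and every axis starting at 0. For H2-D1 all 7 KO libraries lie below all 8 WT libraries, for B2m all 5 WT TAC libraries lie above all other libraries, and for Nlrc5 the groups overlap.

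H2-Q4 and H2-T23 are nonclassical heavy chains. H2-T23 encodes Qa-1, which displays leader peptides of other class I chains to NKG2A receptors on NK cells. H2-T23 (chromosome 17, 36029977 to 36032701) was at 191, 206 and 202 CPM in WT sham and 222, 199.8, 237, 235 and 257 CPM in WT TAC. KO sham held 126, 142 and 213 CPM and KO TAC 122, 119.7, 130.3 and 176 CPM. The TAC groups did not overlap, and in the sham groups KO sham 350 lay above all 3 WT libraries while the other two lay below. H2-T23 had the largest change of the 10 genes in KO TAC against WT TAC, a fall of 0.75 ± 0.13 (edgeR adjusted p = 0.000109). In the sham groups it had -0.33 ± 0.16 (edgeR adjusted p = 0.209). Without KO sham 350 that value was -0.56 and passed (edgeR adjusted p = 0.0105), the only 1 of 23 alternatives in which it passed. Without KO sham 348 and 350 together it was -0.49.

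H2-Q4 (chromosome 17, 35379617 to 35384674) was at 278, 282 and 271 CPM in WT sham and 349.5, 354, 273, 299 and 342 CPM in WT TAC. KO sham held 159, 193 and 240.0 CPM and KO TAC 201, 221, 208 and 313 CPM. The sham groups did not overlap, and of the KO TAC libraries KO TAC 354 alone reached into the WT TAC range. H2-Q4 fell by 0.46 ± 0.12 after TAC (edgeR adjusted p = 0.00614) and by 0.50 ± 0.15 after sham (edgeR adjusted p = 0.0408).

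Heavy chain genes resemble each other, and a read that fits several places was not counted. Among 50-base windows of the longest GENCODE M21 coding transcript, 24.3% of H2-Q4, 29.8% of H2-T23, 14.3% of H2-D1 and 8.79% of H2-K1 also occur in a transcript of a gene elsewhere. With 100-base windows the shares are 2.83%, 7.28%, 4.64% and 0%. B2m, Nlrc5 and Erap1 share no 50-base window. Heavy chain levels are therefore uncertain, and the read length is not given in the sources used here.

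Tap1 and Tap2 are the subunits of the transporter that moves peptides into the endoplasmic reticulum. Tap2 (chromosome 17, 34204479 to 34216321) was at 200.04, 207 and 188 CPM in WT sham and 217, 206, 215, 198 and 236 CPM in WT TAC. KO sham held 117, 139.7 and 178 CPM and KO TAC 147, 134, 139.9 and 192 CPM. KO and WT libraries did not overlap after either surgery, and Tap2 fell by 0.49 ± 0.11 after TAC (edgeR adjusted p = 0.00149) and by 0.47 ± 0.13 after sham (edgeR adjusted p = 0.0315). Tap1 (chromosome 17, 34187556 to 34197225) was at 130.3, 148 and 112 CPM in WT sham and 169, 148, 134, 148 and 169.7 CPM in WT TAC. KO sham held 108, 113 and 126 CPM and KO TAC 90.3, 125, 109 and 149.6 CPM. Here the genotypes overlapped after both surgeries, and KO TAC 354 lay above 3 of 5 WT TAC libraries. Tap1 fell after TAC by 0.38 ± 0.11 (edgeR adjusted p = 0.0154), a call that was lost without KO TAC 351 or 353 (edgeR adjusted p = 0.0883 and 0.0655) and with the leukocyte markers as a covariate (0.0515). After sham it had -0.20 ± 0.14 (edgeR adjusted p = 0.422). The ratio of Tap1 to Tap2 in RPKM was 0.553 ± 0.0513 in WT sham, 0.605 ± 0.0493 in WT TAC, 0.687 ± 0.0871 in KO sham and 0.655 ± 0.112 in KO TAC (SD), and the ranges of all groups overlapped.

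Tapbp encodes tapasin, the chaperone that edits the peptide cargo (chromosome 17, 33919478 to 33929290). It was at 542, 617 and 506 CPM in WT sham and 589, 514, 577, 592 and 636 CPM in WT TAC. KO sham held 494, 440.1 and 624 CPM and KO TAC 394, 358, 386 and 492 CPM. All 4 KO TAC libraries lay below all 5 WT TAC libraries, and the sham groups overlapped. Tapbp fell by 0.51 ± 0.10 in KO TAC against WT TAC (edgeR adjusted p = 0.000525), with -0.10 ± 0.12 in the sham groups (edgeR adjusted p = 0.655). Its value in KO TAC against KO sham was -0.35 ± 0.11 (edgeR adjusted p = 0.0555), the member nearest to the threshold there. DESeq2 called it (adjusted p = 0.0374), as did edgeR with no low-count filter (adjusted p = 0.0464) and without KO sham 349 or KO TAC 354 (adjusted p = 0.0135 and 0.0150). Without KO sham 350 it was -0.19, and without KO sham 348 and 350 together -0.10.

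Erap1, the aminopeptidase that trims peptides in the endoplasmic reticulum (chromosome 13, 74639872 to 74691875), was at 132, 143 and 112 CPM in WT sham and 173, 145, 153, 168 and 183 CPM in WT TAC. KO sham held 142, 148 and 126 CPM and KO TAC 127, 147, 131 and 158 CPM. The WT TAC libraries all lay above the WT sham libraries, and the genotypes overlapped after both surgeries. Its log2 fold change was 0.32 ± 0.10 in WT TAC against WT sham (edgeR adjusted p = 0.0924) and -0.23 ± 0.09 in KO TAC against WT TAC (edgeR adjusted p = 0.059). Limma voom called both values (adjusted p = 0.0221 and 0.00824), and in edgeR the first also passed without WT TAC 135 (adjusted p = 0.0496) and the second without WT TAC 135, without KO TAC 354 and without KO sham 348 and 350 together (adjusted p = 0.0342, 0.0396 and 0.0483).

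Nlrc5, the transactivator of class I promoters (chromosome 8, 94472763 to 94527272), was at 88.8, 94.6 and 87.3 CPM in WT sham and 95, 108, 69.3, 82.8 and 109 CPM in WT TAC. KO sham held 70, 90.9 and 141 CPM and KO TAC 71.8, 104, 109 and 147 CPM. The libraries of all 4 groups overlapped, and KO TAC 354 and KO sham 350 were the highest. Its log2 fold change was 0.22 ± 0.18 in KO TAC against WT TAC (edgeR adjusted p = 0.394) and 0.14 ± 0.23 in the sham groups (edgeR adjusted p = 0.765), on the opposite side of 0 from the 8 genes that fell after TAC. The first of these passed in 0 of 23 alternatives, DESeq2 and limma voom among them, and was 0.05 without KO TAC 354.

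**Figure D4:**
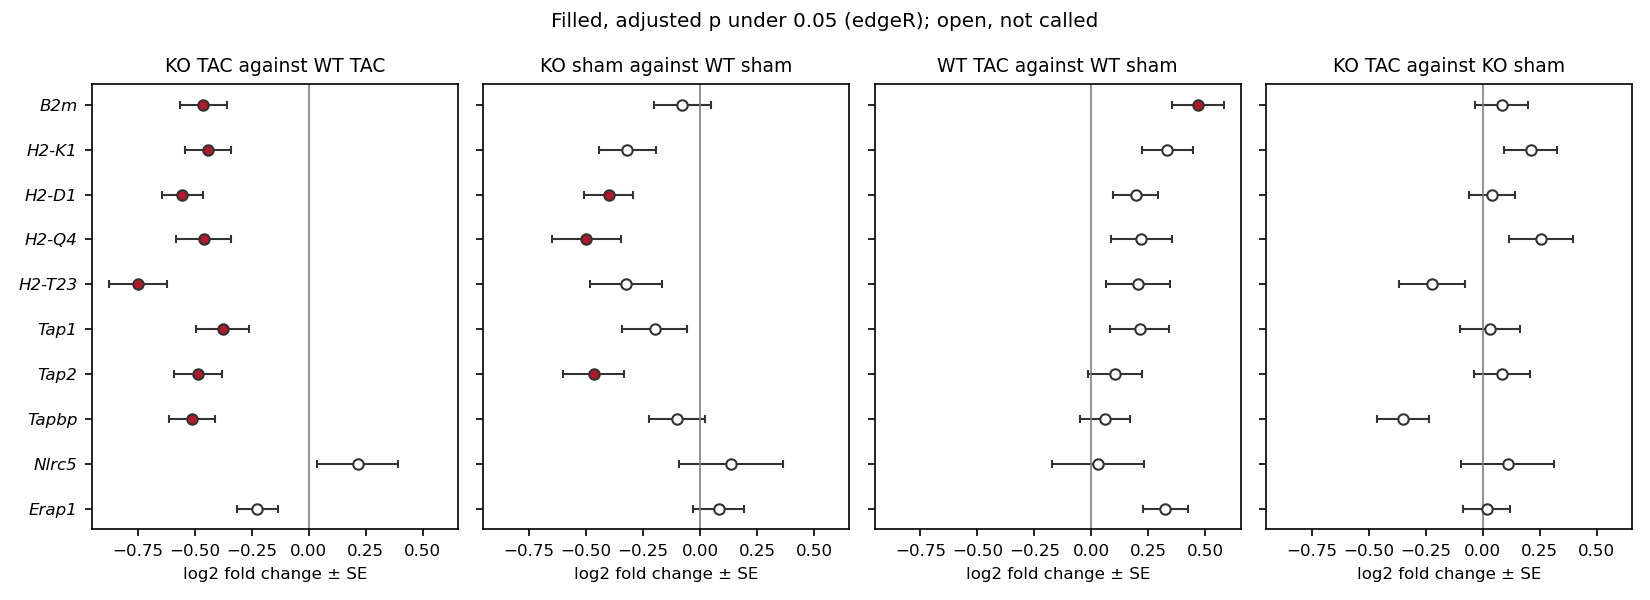
Log2 fold change and SE of the 10 genes in the 4 pairwise comparisons, filled where the adjusted p was under 0.05 in edgeR. In KO TAC against WT TAC 8 genes lie at -0.75 to -0.38 and are filled, and Nlrc5 lies at 0.22.

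As a group the 10 genes had a median log2 fold change of -0.46 in KO TAC against WT TAC and -0.26 in KO sham against WT sham, where all genes tested had -0.02 and -0.00486. Groups did not overlap, with KO below WT, for 5 of 10 genes after TAC and 4 of 10 after sham, beside 15.7% and 12.1% of all genes. Averaged over both surgeries the same 8 genes fell in KO against WT, beside 16% of all genes. The values ran from -0.54 ± 0.10 for H2-T23 to -0.27 ± 0.08 for B2m. Without WT sham 132 the calls of B2m and Tap1 were lost there (edgeR adjusted p = 0.0704 and 0.0927), and without KO sham 348 and 350 together that of Tap1 (0.0540). In WT TAC against WT sham all 10 values were above 0, with a median of 0.21 against 0.00448 for all genes, and 1 passed. B2m and Erap1 did not overlap there, with TAC above sham, beside 7.91% of all genes. In KO TAC against KO sham 0 of 10 passed in edgeR and limma voom and 1 in DESeq2, with 9.59% of all genes called in edgeR. An unadjusted p under 0.05 was found there for 1 of 10, beside 3133 of all 12471 genes tested. For the difference between the TAC effects 0 of 10 passed with any of the 3 tools, and 0.69% of all genes were called in edgeR. An unadjusted p under 0.05 was found for 4 members (B2m, H2-T23, Tapbp and Erap1, all below 0), beside 1819 of all 12471 genes tested. The same contrast compares the genotype effect after TAC with that after sham, so neither effect was shown to differ for any member. WT TAC libraries enter both the TAC and the genotype comparison, so these results are not independent of each other.

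The 3 calls in the sham groups changed with the libraries fitted. They numbered 0 without KO sham 348, 0 without KO sham 348 and 350 together, 0 without WT sham 132, and 1 without WT sham 131, WT sham 133 or KO sham 349. They also numbered 0 when only the sham groups were fitted. After TAC between 7 and 9 members were called in all alternatives run.

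Some libraries were high or low in their group for most of the 10 genes. WT sham 132 was the highest WT sham library for 10 of 10 genes, WT TAC 138 the highest of its group for 9, KO sham 350 for 7 and KO TAC 354 for 9. WT TAC 138, KO sham 350 and KO TAC 354 had the lowest total counts of their groups, and WT sham 132 the highest. WT sham 133, which had the lowest total count of its group, was the lowest WT sham library for 7 genes. KO TAC 351 was the lowest of its group for 7 genes and KO sham 348 for 7. KO sham 350 was the lowest for 2, B2m and Erap1, and KO sham 348 the highest for 1, B2m. The part of depth in this spread was not tested.

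Leukocytes carry much class I mRNA, so their markers bear on these levels. The 10 leukocyte markers summed to 40.9 to 48.2 CPM in WT sham, 47.4 to 58.1 in WT TAC, 43.6 to 69.1 in KO sham and 63.2 to 81 in KO TAC. All 4 KO TAC sums lay above all 5 WT TAC sums. Most of that difference was in Lcp1, at 25.4 ± 3.43 CPM in WT TAC and 40.1 ± 3.06 in KO TAC, and Arhgdib, at 22.7 ± 0.78 and 27 ± 5.58 CPM (SD). Of 5 leukocyte markers tested 1 rose, Lcp1, and 0 fell, while Cd52, Coro1a, Tyrobp and Fcer1g had means under 1 CPM in both groups. With the leukocyte markers as a covariate 7 of 10 members fell after TAC, and the part of leukocytes in the class I values was not tested otherwise. The 9 macrophage and monocyte markers in the table summed to 5.92 to 13.3 CPM over all libraries, and the 11 T, NK and B cell markers to 0 to 4.39 CPM, with Cd3g at 0 throughout. Of 4 macrophage and monocyte markers tested 1 rose and 0 fell in KO TAC against WT TAC, and 3 of the 4 values were below 0. Cd68 was at 2.09 ± 1.24 CPM in WT TAC and 5.53 ± 1.26 in KO TAC (SD). Fibroblast markers, 10 of 10 tested, summed to 116 to 173 CPM in WT sham, 328 to 394 in WT TAC, 93.2 to 252 in KO sham and 135 to 246 in KO TAC. Cardiomyocyte markers, also 10 of 10 tested, summed to 248 to 286 CPM in WT TAC and 122 to 216 in KO TAC. Between KO TAC and WT TAC 6 fibroblast and 3 cardiomyocyte markers fell and 0 rose, where 15% of all genes fell and 14.8% rose. The 10 endothelial markers summed to 14968 to 16331 CPM in WT TAC and 13336 to 14017 in KO TAC, where 5 fell and 1 rose. All 3 sums were lower in KO TAC than in WT TAC without overlap, as B2m, H2-D1, H2-T23, Tap2 and Tapbp were. The part of these markers in the class I result was not tested.

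Other genes of the pathway were taken from lists. Beside their counts, 15% of all genes fell and 14.8% rose in KO TAC against WT TAC, and 4.63% fell in KO sham against WT sham. Of the 6 genes of the immunoproteasome, the interferon-inducible protease that favours peptides fit for class I, 5 fell in KO TAC against WT TAC and 4 in KO sham against WT sham, or 2 without KO sham 348 and 350 (Psmb9 and Psmb10). Psmb9, a catalytic subunit encoded next to Tap1, fell after TAC by 0.99 ± 0.13 and Psmb8 by 0.97 ± 0.13 (edgeR adjusted p = 8.12e-06 and 1.3e-05). Psmb10, the third catalytic subunit, fell by 0.80 ± 0.11 after TAC and Psme2, an activator subunit, by 0.73 ± 0.13. Of the other heavy chains 6 of 19 in the table were tested, and 2 fell after TAC, H2-T24 by 0.81 ± 0.11 and H2-M3, which presents formylated peptides, by 0.42 ± 0.15, while H2-Q6 fell after sham by 0.62 ± 0.19, a call that was lost without KO sham 348 and 350 (-0.38, edgeR adjusted p = 0.499). Among 8 other loading and folding factors 3 fell and 1 rose after TAC and 0 of 8 passed after sham in edgeR. After sham 4 of 8 had an unadjusted p under 0.05, beside 2974 of all 12471 genes tested. Tapbpl, a tapasin-like peptide editor, fell after TAC by 0.81 ± 0.09 (edgeR adjusted p = 1.25e-06), from 51.8 ± 2.82 CPM in WT TAC to 29.6 ± 2.68 in KO TAC (SD, n = 5 and 4). The lectin chaperone gene Calr fell by 0.26 ± 0.08 and Bcap31 by 0.36 ± 0.10, and Uggt1, which checks glycoprotein folding, rose by 0.31 ± 0.07. Of 7 other peptidases 3 rose after TAC and 0 fell: Tpp2 by 0.41 ± 0.07, Npepps by 0.47 ± 0.13 and Lnpep by 0.22 ± 0.07. Of 5 class I-like genes tested 2 fell after TAC, Fcgrt, the IgG and albumin receptor chain that pairs with B2m, by 1.24 ± 0.08, and the iron regulator Hfe by 0.57 ± 0.09. Fcgrt went from 161 ± 11.1 CPM in WT TAC to 68.6 ± 6.53 in KO TAC.

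Of 14 regulators of class I tested, 3 fell in KO TAC against WT TAC and 2 rose, shares near the 15% and 14.8% of all genes. Irf1, an interferon-induced factor that binds class I promoters, fell by 0.55 ± 0.12 (edgeR adjusted p = 0.00185), from 260.0 ± 25 CPM in WT TAC to 178 ± 37 in KO TAC. Rfxap fell by 0.93 ± 0.17 and Rfx5, another subunit of the RFX complex, rose by 0.70 ± 0.13. Nfya, an NF-Y subunit, fell by 0.25 ± 0.07, and Ezh2, a histone methyltransferase of the Polycomb group, rose by 0.97 ± 0.22. Of 12 genes for interferon receptors and signalling 3 fell and 2 rose after TAC, beside the same 15% and 14.8%. Ifngr1, a chain of the interferon gamma receptor, rose in WT TAC against WT sham by 0.41 ± 0.10 (edgeR adjusted p = 0.0356) and fell in KO TAC against WT TAC by 0.46 ± 0.09, while Ifngr2 rose in both (0.56 ± 0.10 and 0.26 ± 0.08) and Jak2 rose in the second (0.48 ± 0.07). Irf9 fell in KO TAC against WT TAC by 0.28 ± 0.08, and the feedback inhibitor Socs1 by 0.62 ± 0.20. Of 30 interferon-stimulated genes 17 fell and 2 rose in the same comparison, with a median of -0.45. In KO sham against WT sham 6 of the 30 fell, beside 4.63% of all genes. Irf7, a factor of the type I interferon loop, fell after TAC by 0.96 ± 0.12, the antiviral Rsad2 by 0.83 ± 0.11, Gbp2 by 0.67 ± 0.11 and Cmpk2 by 0.51 ± 0.09. Of those that fell after sham Isg15, a ubiquitin-like modifier, fell by 1.04 ± 0.19 and Bst2 by 0.90 ± 0.16. Without KO sham 348 and 350 0 of the 30 passed after sham in edgeR, where Isg15 was at -0.71 and Bst2 at -0.73 (adjusted p = 0.0898 and 0.0552). Among 7 MHC class II genes tested 0 passed in KO TAC against WT TAC in edgeR. Of these 7 genes 0 had an unadjusted p under 0.05, beside 4982 of all 12471 genes tested.

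**Figure D5:**
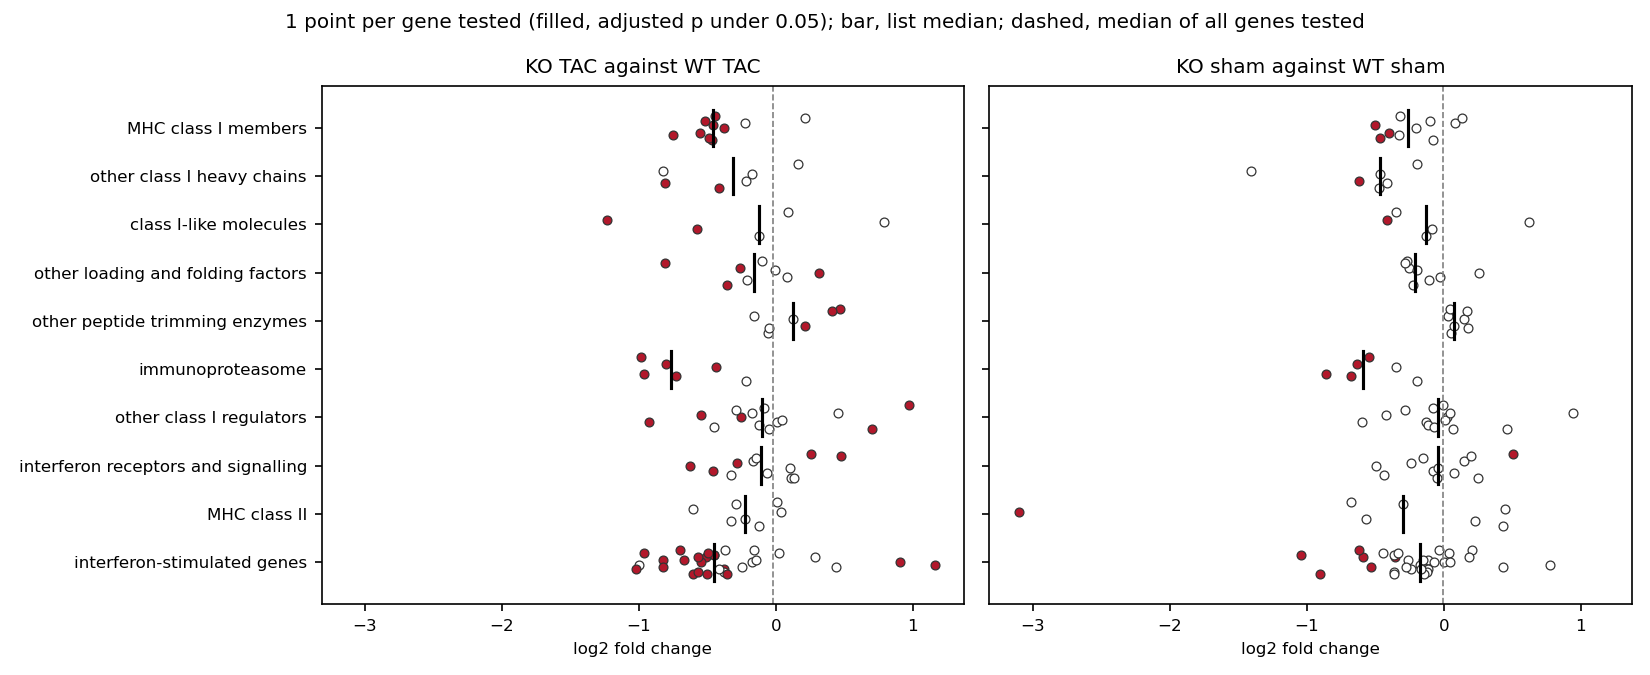
Log2 fold change of each gene tested, by list, in KO TAC against WT TAC and KO sham against WT sham, filled where called by edgeR, with list medians as bars. The median of the 10 class I genes is -0.46 after TAC and that of the 6 immunoproteasome genes -0.76, and of the 7 peptidases 4 lie above 0 and 3 below after TAC, with a median of 0.12.

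The 5 genes outside the set with the level pattern nearest to the mean of the 10 genes were Irgm2, Igtp, Iigp1, Tgtp2 and Mcf2l. Nearness was the mean absolute difference of standardized log2 CPM over 15 libraries, which was 0.289 SD for Irgm2 and 0.353 SD for Mcf2l. Among the members it ran from 0.233 SD for Tap1 to 0.826 SD for Nlrc5. Each member is part of the mean it is set against, so these values are not comparable with those of outside genes. Irgm2, Igtp, Iigp1 and Tgtp2 encode interferon-inducible GTPases. Irgm2 was at 133 ± 9.33 CPM in WT sham, 169 ± 25.4 in WT TAC, 123 ± 13.7 in KO sham and 114 ± 19.1 in KO TAC (SD). As these genes were chosen for their levels in the same libraries, no test is given for them.

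Of the 10 genes 7 lie on chromosome 17 between 33919478 and 36032701, in the MHC. Of 91 other genes tested in that interval 11% fell in KO TAC against WT TAC and 4.4% rose, beside 15% and 14.8% of all genes, and their median was -0.10. Besides Psmb9, Psmb8 and H2-T24, the gene with the smallest p was Rps18, a ribosomal protein gene, which fell by 0.71 ± 0.09. In KO sham against WT sham 7.69% of the 91 genes fell and 0% rose, where 4.63% of all genes fell. Their median there was -0.20, against -0.00486 for all genes. Averaged over both surgeries 22% fell in KO against WT and 3.3% rose, where 16% of all genes fell. The medians were -0.08 and -0.02. For these neighbours no values are given without the KO sham libraries that stand apart.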

How the data were processed

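The deposited file is 1 table of raw counts of reads per gene over its exons. Alignment used HISAT2 2.1.0 and mm10, per the submitters' processing notes. Counting used featureCounts 1.6.2 with strand setting 2 and UCSC genes, and neither multimapping reads nor reads over several genes were counted, per the file headers. Libraries came from a TruSeq kit, per the labels' protocols. Each of the 15 columns matched 1 sample, and 0 were left over. A single batch is named, and no mouse number is shared between groups. WT mice are numbered 131 to 138 and KO mice 348 to 354, whether both were processed together is not given in the sources used here, and such a difference and the genotype cannot be told apart. P-values measure the spread between mice.

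The step used edgeR 4.0.16 (R 4.3.3): filterByExpr (minimum count 10, total 15), TMM, glmQLFit with 1 coefficient per group, and two-sided glmQLFTest with Benjamini-Hochberg adjustment over 12471 genes, separately for 7 comparisons. The threshold was an adjusted p of 0.05, and genes said to rise or fall passed it. The step was tested on simulated data. CPM used TMM-scaled totals. Errors of levels are SD and errors of log2 fold changes SE. Members, lists and tests were chosen with earlier results of these data known. Of 220 entries in 20 lists 214 matched the table. Named are all 10 members, up to 4 called genes per list and comparison by p, the 5 most alike genes and up to 4 called neighbours on chromosome 17, or fewer. Socs1, Nfya and the class II gene H2-Eb1 were named beyond this rule after their values were seen. Alternatives were RLE factors, no filter, 5 CPM in 3 libraries, DESeq2 1.42.0, limma 3.58.1 voom with quality weights, only the groups compared, a leukocyte covariate, each library left out, and KO sham 348 and 350 left out together (for the pathway lists, Tmem173 and Cfb added after seeing the data).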

Additional observations from a re-analysis of the deposited data

Results flagged for a closer look

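H2-D1 in KO TAC 354 lay apart from its group, at 1392 CPM where the next library held 1177 CPM. The gap was 0.831 of the group's range, against a critical value of 0.829 for 4 libraries. The check was made in 20 groups of 4 or 5 libraries, and chance flags about 1 in 20. Without this library H2-D1 still fell in KO TAC against WT TAC.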

How the results depend on the processing

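Of 496 alternative values of single members that passed, 445 kept their side of the threshold, 51 lost it and 0 changed sign. Of 1084 that did not pass, 13 gained it and 49 changed sign. The count of 8 called members became 7 to 9 in KO TAC against WT TAC and 6 to 8 in KO against WT averaged over surgeries. In WT TAC against WT sham limma voom called 3 members where 1 passed, and leaving out 1 library 0 to 2. In KO TAC against KO sham DESeq2 and no low-count filter each called 1, and leaving out 1 library 0 to 1. The 3 calls in KO sham against WT sham became 0 when only those groups were fitted, 0 without KO sham 348 and 350, and 0 to 4 without 1 library. The 2 calls of TAC averaged over genotypes became 0 with limma voom, 1 with the leukocyte covariate, 0 without KO sham 348 and 350, and 0 to 3 without 1 library. The cause was not tested.

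Values near 0 that had not passed changed sign. For TAC averaged over genotypes H2-T23 was 0.00179 with no filter, 0.0380 with limma voom, 0.0504 with the covariate and 0.0761 without KO sham 348 and 350, and -0.0805 to 0.123 without 1 library, where Nlrc5 ran from -0.0335 to 0.231. In WT TAC against WT sham Nlrc5 was -0.0314 with limma voom and -0.0382 to 0.116 without 1 library. In KO TAC against KO sham limma voom gave -0.000122 for Tap1 and -0.0427 for Erap1, and leaving out KO sham 348 and 350 gave -0.0661 for Erap1. Without 1 library the ranges there were -0.00456 to 0.174 for B2m, -0.0330 to 0.0703 for Erap1, -0.0618 to 0.178 for H2-D1, -0.365 to 0.0374 for H2-T23, -0.0965 to 0.428 for Nlrc5, -0.0889 to 0.151 for Tap1 and -0.0443 to 0.265 for Tap2. In KO sham against WT sham Nlrc5 was -0.0242 with limma voom, -0.00151 without KO sham 348 and 350 and -0.164 to 0.341 without 1 library, where B2m ran from -0.163 to 0.0501 and Tapbp from -0.245 to 0.00242. For the difference between the TAC effects Tap2 was 0.0193 with limma voom, 0.107 with the covariate, 0.0396 without KO sham 348 and 350 and -0.150 to 0.155 without 1 library, where H2-Q4 ran from -0.123 to 0.204 and Nlrc5 from -0.126 to 0.395.

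No paired analysis was possible because each mouse number occurs in 1 group. WT sham 133 holds 1362346 counts, fewer than any other library.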

Other observations

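MHC class II genes, which present peptides from outside the cell, were at low levels in these cells and higher after TAC. Averaged over genotypes 5 of 7 tested rose with TAC and 0 fell, beside 5.93% of all genes higher. Without KO sham 348 and 350 3 of 8 rose, H2-Aa, H2-DMb1 and Cd74. Cd74, the invariant chain, rose by 0.94 ± 0.19 (edgeR adjusted p = 0.0025), from 8.19 ± 2.51 to 17.5 ± 3.65 CPM in WT and from 9.81 ± 3.35 to 16.1 ± 4.38 CPM in KO mice (SD). H2-Aa rose by 1.18 ± 0.31, H2-Ab1 by 0.83 ± 0.26, H2-Eb1 by 1.29 ± 0.41 and H2-DMb1, at 0 to 4.67 CPM over all libraries, by 2.65 ± 0.51. H2-DMb1 was at 0 in KO sham 348 and 350, so its value rests on few counts, and it fell in KO sham against WT sham when these libraries were included. Of the leukocyte markers Lcp1 rose in the same comparison by 0.55 ± 0.10 (edgeR adjusted p = 0.00148), and the part of leukocytes in the class II values was not tested.

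Cfb, a complement gene of the MHC interval that is made by many cells under interferon and NF-kappaB, was higher after TAC in both genotypes, from 7.64 ± 2.06 to 22.2 ± 5.32 CPM in WT and from 8.43 ± 2.32 to 20.1 ± 2.93 CPM in KO mice. The log2 fold changes were 1.40 ± 0.23 and 1.21 ± 0.23 (edgeR adjusted p = 0.00131 and 0.00176). Without KO sham 348 and 350 the value in KO mice was 1.02 ± 0.29 and did not pass (edgeR adjusted p = 0.0906).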
